A study of Sus scrofa with 9 samples.

Results

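The salivary lipocalin gene SAL1 gave a bright signal in the testes of control boars and of an oligospermic boar, and a signal 19.0-fold lower in the testis of a boar carrying a reciprocal translocation between chromosomes 1 and 14. RNA of testicular biopsies was hybridized to 9 single-colour porcine Agilent arrays, 3 per group. The control group came from fertile boars with normal semen parameters and a normal karyotype, and the labels do not say which of the 3 control boars named in the methods each array holds. The oligospermic group came from 1 boar, also of normal karyotype, and the t(1;14) group, labelled trcp(1;14), from 1 Landrace × Duroc crossbred boar with oligo-astheno-teratospermia. No age in figures was found for any group, though the methods describe the t(1;14) carrier as detected when young boars were screened, and breed was not given in the labels for the other two. Arrays within a group stand for separate extractions. Those of the oligospermic and of the t(1;14) group share 1 animal each, and those of the control group may share one, so n counts arrays. The p-values therefore measure the spread between arrays alone, and any other difference between the boars cannot be told apart from the translocation.

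Lipocalins are small secreted proteins that fold into a barrel with a pocket for a fatty ligand such as a steroid, a retinoid or an odorant. SAL1 carries the steroid pheromones androstenone and androstenol in boar saliva, and the boar testis is the organ that makes these steroids. PTGDS is both a lipocalin and the enzyme that makes prostaglandin D2, RBP4 carries retinol in plasma, LCN2 binds the iron carriers of bacteria and is stored in neutrophils, and LCN5 is a retinoic acid carrier of the epididymis. Outside the cell some of these proteins are taken up by receptors, and inside it the related fatty acid and retinoid binding proteins (the intracellular calycins) carry the same kinds of ligand.

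The genes were taken by name (SAL1, PTGDS, RBP4, LCN2 and APOD) or because the probe description names a lipocalin, an odorant-binding protein or prostaglandin D2 synthase. This gave 8 gene names with 14 probes, of 49437 gene names and 60531 probes on the array. No probe for APOD was found. By description alone came LCN5, LCN1, OBP (an odorant-binding protein of the nasal mucosa) and TC568367, an expressed sequence contig whose description likens it to a mosquito odorant-binding protein. Insect odorant-binding proteins are not lipocalins, so TC568367 is given only because its description matched. SAL1 itself was selected on its lower signal in t(1;14) than in control arrays, so its levels are given as a description, with no p-value. Where its probes are counted as called, this supports nothing. By the RefSeq annotation of the Sscrofa11.1 assembly, SAL1, LCN2 and LCN1 (there named OBP2B) lie on chromosome 1, RBP4 on chromosome 14 and OBP on chromosome X, while PTGDS and LCN5 have no placed chromosome.

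Each probe is a 60-base stretch of a transcript, and the sequences below, in lower case from 5′ to 3′ as the array files give them, show what was measured for the genes the results turn on.
SAL1: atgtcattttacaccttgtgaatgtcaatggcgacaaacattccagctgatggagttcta
PTGDS: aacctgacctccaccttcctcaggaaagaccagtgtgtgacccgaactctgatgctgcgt
LCN5: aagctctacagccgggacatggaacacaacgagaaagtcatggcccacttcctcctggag
LCN1: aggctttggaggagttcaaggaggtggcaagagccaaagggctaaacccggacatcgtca
RBP4: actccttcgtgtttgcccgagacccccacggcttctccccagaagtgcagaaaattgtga
LCN2: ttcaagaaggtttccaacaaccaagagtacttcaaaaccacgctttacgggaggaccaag
Both probes of LCN2 carry the same sequence, so they are a single measurement made in duplicate.

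Signals are given as log2 of the background-subtracted intensity, quantile normalized over the 9 arrays, so that a difference of 1 is a doubling. Tests were limited to probes well above background on no fewer than 2 of the 3 arrays in some group, which 41105 probes and 8 of the 14 lipocalin probes (6 genes) met. Between 37087 and 40632 probes per array were well above background, and no lipocalin probe was saturated. A probe was called when its adjusted p in limma was at most 0.01 and its log2 difference at least 2 in size. Each gene is described by the tested probe of highest mean signal, called representative here, and its other probes stand beside it.

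SAL1 stood at 13.80, 13.46 and 13.90 on the control arrays, at 13.53, 13.38 and 13.70 on the oligospermic arrays, and at 9.65, 9.38 and 9.41 on the t(1;14) arrays (representative probe, log2 signal). The 3 t(1;14) arrays lay below all the others, while the control and oligospermic values overlapped. Group means were 13.72 ± 0.23, 13.53 ± 0.16 and 9.48 ± 0.15 (SD, n = 3 each). On the scale of intensities the means were 14400, 13600 and 697, so the probe remained well above background on every t(1;14) array.

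The second SAL1 probe, whose sequence is printed above, gave the same picture from another stretch of the transcript. Its log2 signal was 12.13, 11.65 and 12.18 in the controls, 11.74, 11.57 and 11.90 in the oligospermic boar, and 7.60, 7.51 and 7.32 in the t(1;14) boar. Across the 9 arrays the SAL1 probes correlated at r = 0.999, over groups that lie far apart.

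**Figure D1:**
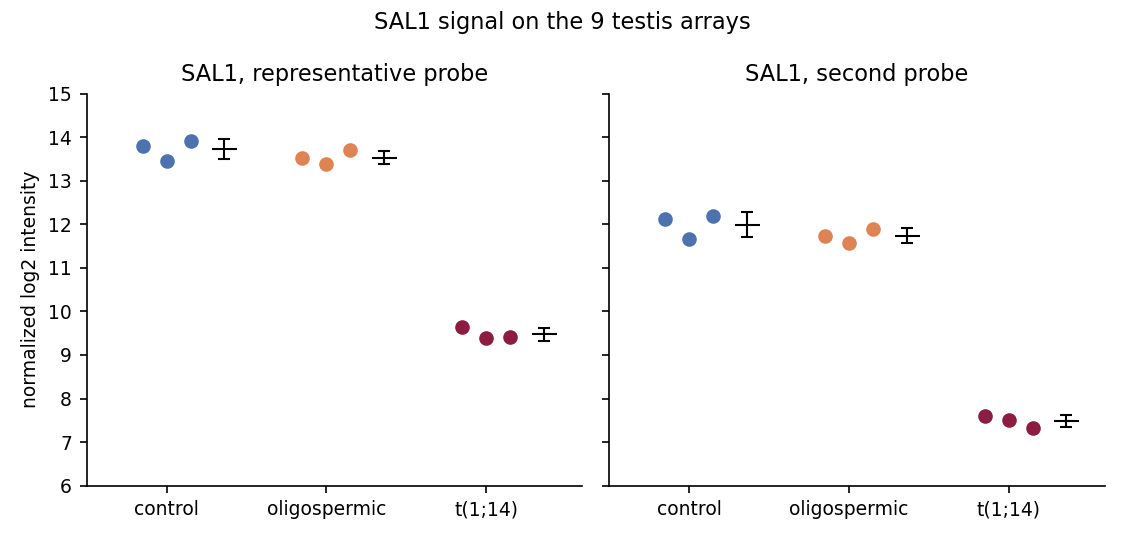
Normalized log2 intensity of the representative and second SAL1 probes on the 9 arrays, by group (points, replicates 1 to 3 from left to right; bars, mean ± SD, n = 3). The t(1;14) arrays sit between 9.38 and 9.65 for the representative probe and between 7.32 and 7.60 for the second, below every control and oligospermic array.

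As a log2 difference, SAL1 was at -4.25 (SE 0.15) in t(1;14) against control with the representative probe and at -4.51 (SE 0.17) with the second, or 19.0-fold and 22.8-fold lower. By the size of the fall these probes ranked 20 and 12 among the 41105 probes. Against the oligospermic boar the differences were -4.06 (16.6-fold) and -4.26 (19.2-fold). Oligospermic minus control was -0.19 (SE 0.15) and -0.25 (SE 0.17). Each slide held 1 array of each group, and within the 3 slides the representative probe gave -4.43, -4.06 and -4.25 for t(1;14) minus control. In bulk tissue, fewer cells of a type and less RNA per cell cannot be told apart.

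Markers of other cell types moved in the same arrays. Of 8 spermatid markers 6 were on the array and tested, and 3 of these were called lower in t(1;14) than in control, where 4.41% of all probes were called lower: ODF1 of the sperm outer dense fibres (-2.52), the acrosomal protein gene ACRV1 (-2.40) and AKAP4 of the fibrous sheath (-2.27). With normexp, an alternative background correction, AKAP4 was at -1.80 and was not called. PRM1, PRM2 and TNP2, which encode the proteins that pack sperm DNA, were saturated on 9, 6 and 4 of the 9 arrays, so their differences cannot be read and their signal makes up much of the sum. The summed log2 level of the 6 spermatid markers ran from 17.84 to 17.98 in control, 17.78 to 17.96 in oligospermic and 17.20 to 17.45 in t(1;14) arrays. The 7 Leydig markers summed to 15.99 to 16.06, 15.67 to 16.08 and 17.11 to 17.26, with 4 called higher in t(1;14), where 1.41% of all probes were called higher: STAR, CYP11A1, CYP17A1 and LHCGR. INSL3, the brightest Leydig marker, makes up much of that sum and was saturated on 3 of the 9 arrays. Among the marker lists with no gene called in t(1;14) against control, the 5 spermatogonium markers summed to 12.78 to 13.21, 12.69 to 13.08 and 13.64 to 13.70. The 3 spermatocyte markers gave 11.94 to 12.26, 11.48 to 11.77 and 12.32 to 12.50, and the 2 tested macrophage and lymphocyte markers (CD14 and CD163) 6.54 to 7.16, 6.22 to 6.51 and 7.38 to 7.70. Within the spermatocyte list, SPO11, which cuts DNA to start meiotic recombination, was at -1.03 in t(1;14) and HORMAD1, a protein of the meiotic chromosome axis, at 0.97. SPO11 was also called lower in oligospermic than in control (-2.14, adjusted p = 0.0033, limma) with 1 of its 2 probes, where 0.112% of all probes were called, a call that was lost with the normexp correction (-1.92). The summed levels of these 3 lists were each higher on all t(1;14) arrays than on any other, while those of the Sertoli and of the peritubular and vascular markers overlapped between groups. The 8 Sertoli markers summed to 16.36 to 16.54, 16.44 to 16.48 and 16.52 to 16.71 (CLU, the brightest, was saturated on all 9 arrays) and the 6 peritubular and vascular markers to 13.78 to 14.65, 13.89 to 14.43 and 13.90 to 14.32, with no call in t(1;14) against control. Members ran both ways, from the Sertoli factor WT1 at -1.43 and the smooth muscle gene CNN1 at -1.09 to the endothelial gene PECAM1 at 1.41. All of these markers were above background on some array, and their part in the SAL1 values was not tested. The labelled tissue was checked in this way, since Leydig and spermatid genes were measured in every group.

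The 5 named genes most like SAL1, by Pearson correlation of log2 signal with its representative probe over the 9 arrays, were taken from 2499 tested probes whose signal ranged over at least 2. They were TES, KCNQ5, HINT3, SLC35A5 (r = 0.997 each) and ACTL7B (r = 0.996). All 9 arrays enter each correlation, and they fall into groups that lie far apart, so it is given as a description. ACTL7B, an actin-like gene of germ cells, had group means of 13.21, 13.15 and 10.47 (control, oligospermic, t(1;14)). HINT3, a nucleotide hydrolase gene, had 14.17, 14.11 and 12.12, and TES, a LIM domain gene, 12.29, 12.21 and 9.95. Their log2 differences between t(1;14) and control were -2.74, -2.05 and -2.34, smaller than that of SAL1, and those of the potassium channel gene KCNQ5 and of SLC35A5 were -2.54 and -2.93. KCNQ5, HINT3 and ACTL7B are also on chromosome 1, as were 235 of the 2160 candidate probes with a RefSeq chromosome (10.9%), and 5 genes are too few to read a share from.

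The genes beside SAL1 on chromosome 1 did not show a fall of that size. SAL1 is number 1364 of 1610 genes in the RefSeq order of the chromosome, which comes from a later assembly than the one used in the study. Of the 10 genes on each side, 8 had a tested probe, and none was called in t(1;14) against control (background 5.82% of all probes). Their log2 differences ran from -0.85 (SLC46A2, SE 0.35) to 0.94 (HSDL2, SE 0.17). LCN2 and OBP2B lie 143 and 222 genes further along the same chromosome.

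**Figure D2:**
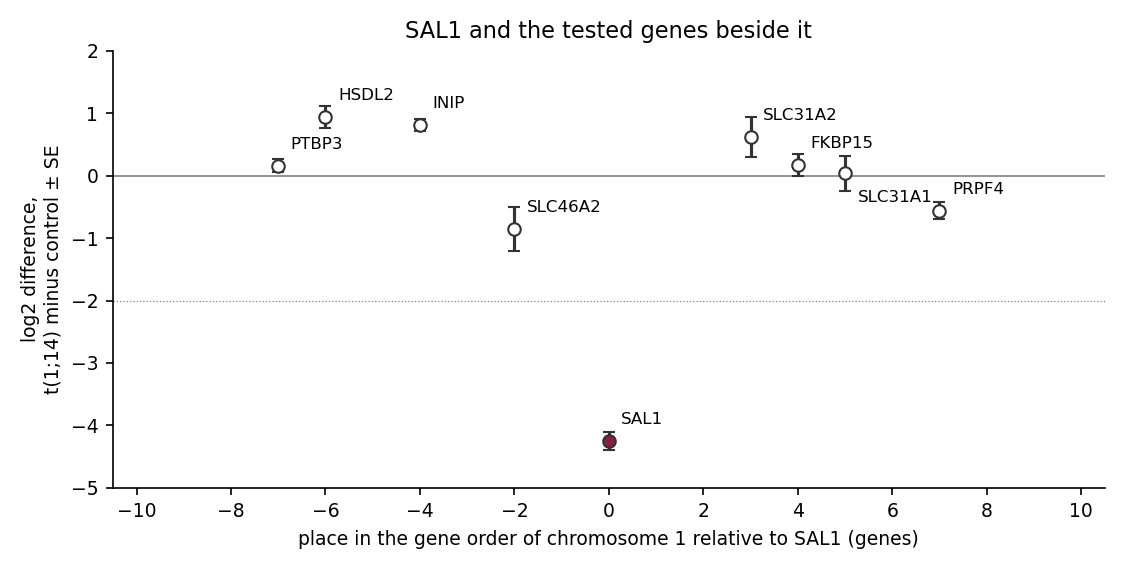
Log2 difference between t(1;14) and control (± SE, representative probe) of SAL1 (filled) and of the 8 tested genes among the 10 on each side of it, by place in the RefSeq gene order of chromosome 1. SAL1 is at -4.25 and its neighbours lie between -0.85 and 0.94.

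PTGDS, the prostaglandin D2 synthase, had a log2 signal of 12.53, 8.09 and 11.91 on the control arrays. It stood at 12.55, 12.41 and 11.91 in the oligospermic boar and at 12.18, 12.40 and 12.19 in the t(1;14) boar. Control replicate 2 was thus far below the other 8 arrays, which lie within 11.91 to 12.55, and the groups overlap. The log2 difference was 1.45 (SE 0.98, adjusted p = 0.61, limma) for oligospermic minus control and 1.42 (SE 0.98, adjusted p = 0.25, limma) for t(1;14) minus control. Without control replicate 2 these were 0.07 (adjusted p = 0.92, limma) and 0.04 (adjusted p = 0.91, limma). Between t(1;14) and oligospermic the difference was -0.03, with a 95% interval of -2.42 to 2.36 by the t distribution. The 3 groups share 1 estimate of the spread, and the SE of this difference was 0.98 with control replicate 2 and 0.218 without it.

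Over the whole array, control replicate 2 lay at least 2 below every other array for 38 of 41105 probes, against 20 and 27 for the other two controls. It was also the lowest control for LCN5 and LCN1, and its part in those values is given beside them.

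LCN5, the epididymal retinoic acid carrier, had the highest log2 signal in the oligospermic boar, at 8.60, 8.58 and 8.79. The controls were spread over 7.57, 3.91 and 5.95, the lowest of which was not well above background, and the t(1;14) arrays stood at 4.21, 4.49 and 4.22. All oligospermic values lay above all control and all t(1;14) values, and the t(1;14) values lay inside the control range. Of the 3 comparisons, t(1;14) against oligospermic was called, with a log2 difference of -4.35 (SE 0.74, adjusted p = 0.0013, limma), or 20.4-fold. Within the 3 slides this difference was -4.12, -4.36 and -4.58, and with the normexp background correction it was -2.39 (adjusted p = 2.0e-04, limma) and still called. Oligospermic minus control was 2.85 (SE 0.74, adjusted p = 0.14, limma) and t(1;14) minus control -1.5 (SE 0.74, adjusted p = 0.12, limma), neither of which passed. Without control replicate 2 the latter was -2.46 (adjusted p = 0.0023, limma) and was called, while oligospermic minus control was 1.89 (adjusted p = 0.062, limma). Without control replicate 1 the same differences were -0.62 (adjusted p = 0.32, limma) and 3.72 (adjusted p = 0.017, limma), so both values depend on which controls are used.

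The other markers of epididymis and duct epithelium were given beside LCN5, since a biopsy could hold such cells. CRISP1, EPCAM and CDH1 were tested and none was called in any comparison. Their summed log2 level was 10.06 to 10.84 in control, 10.43 to 10.45 in oligospermic and 9.74 to 9.96 in t(1;14) arrays. CRISP1, a secreted protein of the epididymis, had group means of 4.68, 4.74 and 4.44. The part of such cells in the LCN5 values was not tested.

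LCN1, named OBP2B in the RefSeq table, was well above background only on control replicates 1 and 3. Its log2 signal was 7.00, 2.12 and 4.79 in control, 1.92, 1.48 and 1.62 in oligospermic and 1.58, 3.37 and 1.5 in t(1;14) arrays. Where a group had no array above background, the lowest signal well above background on each array was used as a limit. A spot not well above background can exceed it (TC568367 at 4.37 on t(1;14) replicate 2, limit 3.88), so folds against this limit are approximate. Against it LCN1 was 1.92-fold lower in oligospermic (adjusted p = 0.28, limma) and 2.04-fold lower in t(1;14) (adjusted p = 0.080, limma) than in control. Neither passed. LCN1 entered the test through its control arrays alone, so a lower signal in the other two groups was built into the filter and these p-values support nothing. Without control replicate 2, the control array below background, the folds against this limit were 4.58 and 4.88, and the latter comparison passed the threshold, by the same construction. The second LCN1 probe was above background on 1 control array alone and was not tested.

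RBP4, the plasma carrier of retinol, had a log2 signal of 7.21, 8.03 and 7.93 in control, 7.44, 8.36 and 8.43 in oligospermic and 7.04, 6.36 and 7.09 in t(1;14) arrays. The t(1;14) values lay below all others. For oligospermic minus control the log2 difference was 0.35 (adjusted p = 0.75, limma). In t(1;14) it was -0.90 against control (SE 0.34, adjusted p = 0.052, limma) and -1.25 against oligospermic (SE 0.34, adjusted p = 0.013, limma), so neither was called. With slide as a block the adjusted p in limma fell to 5.3e-04 and 1.4e-04, still with a difference under 2. The second RBP4 probe did not show this order, with group means of 4.98, 5.27 and 5.22 and log2 differences of 0.24 and -0.05 for the same comparisons. The remaining probe was below background on all arrays.

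LCN2 and OBP were well above background on none of the 9 arrays with either of their probes, and were not tested. The LCN2 log2 signals lay between 1.30 and 1.55 and those of OBP between 1.42 and 1.85. TC568367 had group means of 4.18 ± 0.42, 4.12 ± 0.39 and 4.38 ± 0.07 (SD, n = 3 each), with differences from -0.06 to 0.26 and no call.

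**Figure D3:**
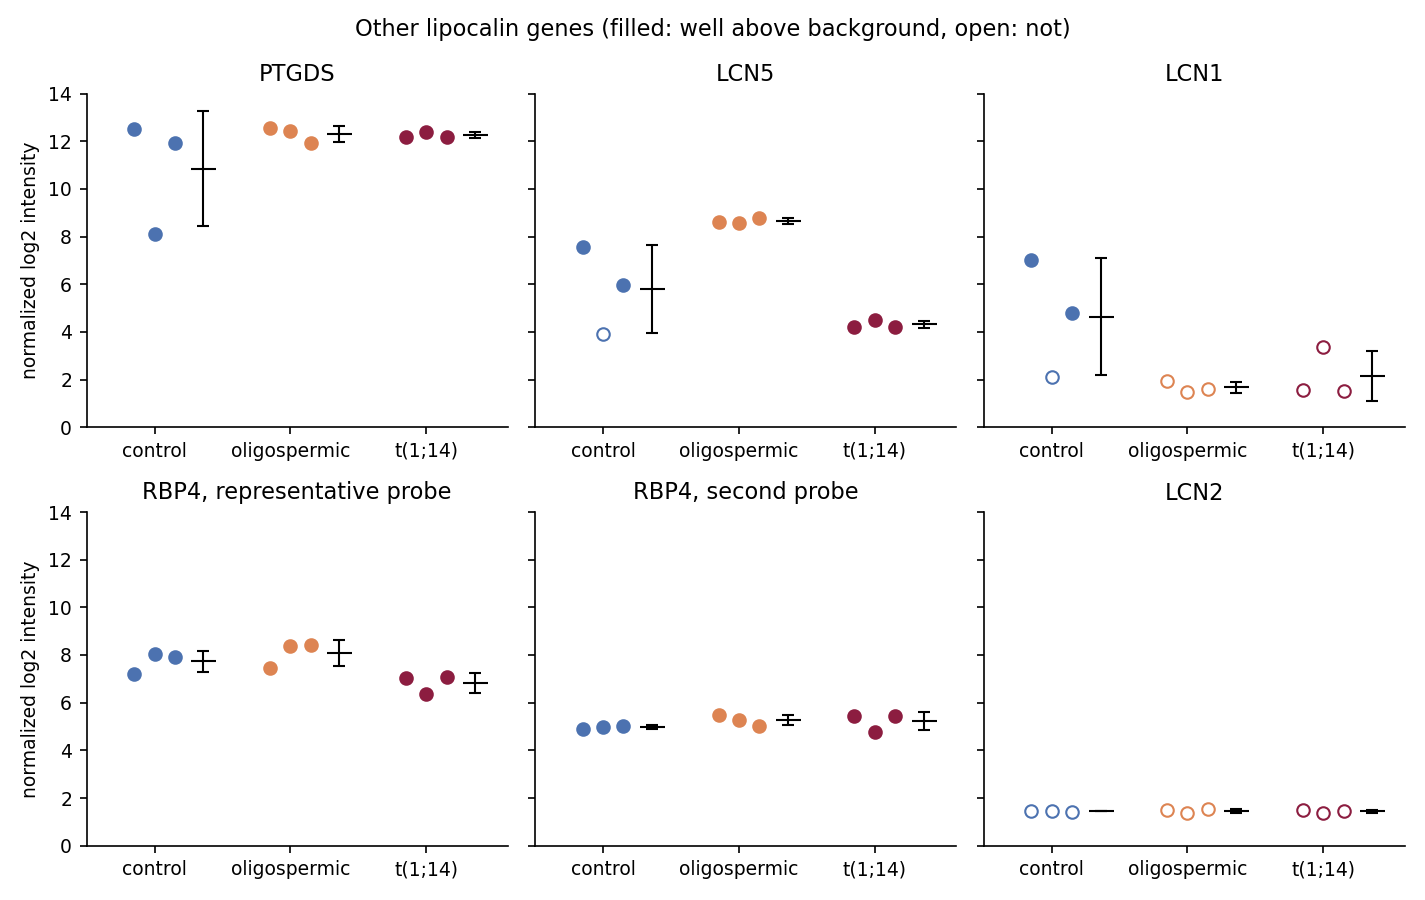
Normalized log2 intensity of 6 probes of the other lipocalin genes on the 9 arrays, by group (points, replicates 1 to 3 from left to right, filled where well above background; bars, mean ± SD, n = 3). The low control array of PTGDS is at 8.09, LCN5 runs from 8.58 to 8.79 in oligospermic and from 4.21 to 4.49 in t(1;14) arrays, and LCN2 stays below background throughout.

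In all, 0 of the 8 tested lipocalin probes were called in oligospermic against control, where 0.112% of all probes were called (46 probes, 30 with the replicate block and 41 with slide as a block). At an unadjusted p under 0.05 there were 2, those of LCN5 and LCN1, beside 5331 of the 41105 probes (13%), and that of LCN1 follows from the filter as given above. In t(1;14) against control 2 were called, both of SAL1, beside 5.82% of all probes (2392). In t(1;14) against oligospermic 3 were called, those of SAL1 and LCN5, beside 6.53% (2683). Since SAL1 was selected on these arrays, its calls say nothing further, and the 1 remaining call is that of LCN5.

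**Figure D4:**
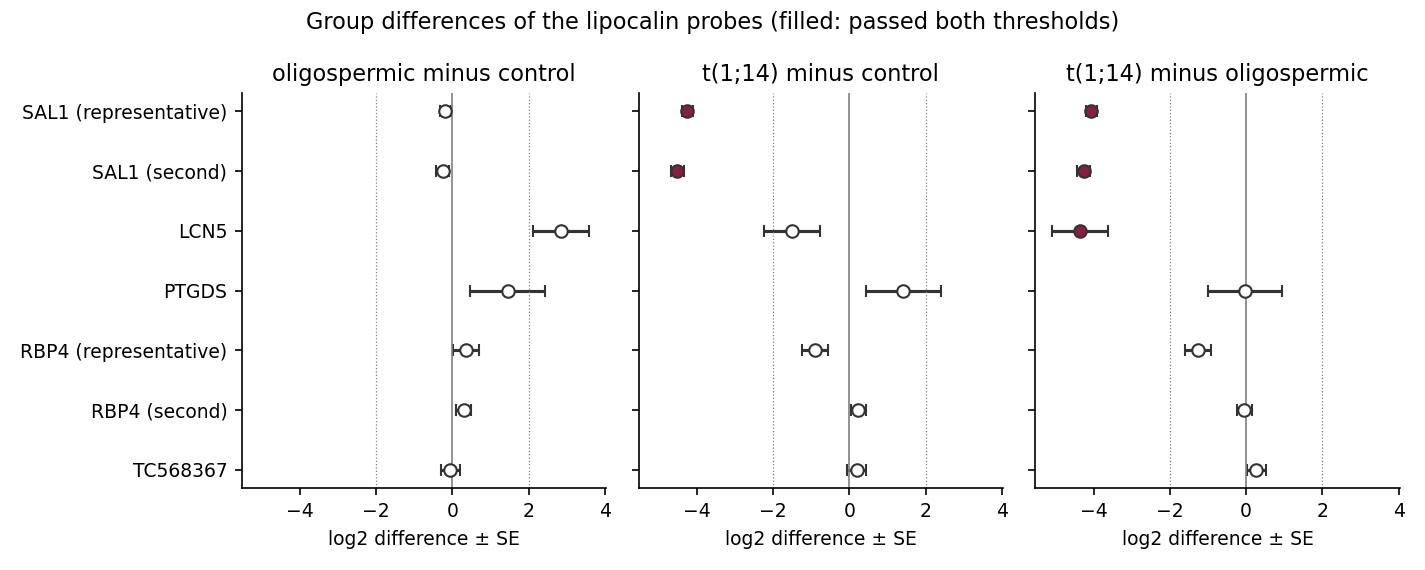
Log2 difference (± SE) of 7 tested lipocalin probes in the 3 comparisons, filled where the adjusted p was at most 0.01 and the size at least 2 (dotted lines). LCN1 is left out because it was below background in the oligospermic and t(1;14) boars. The SAL1 probes lie between -4.51 and -4.06 in both comparisons of t(1;14), and LCN5 at -4.35 against the oligospermic boar. SAL1 was selected on these arrays, so its filled points support nothing.

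Other extracellular lipocalins were few on the array. Of 15 listed, 3 had a tested probe beside the genes above, and none was called in any comparison. The complement component C8G was at -1.18 in t(1;14) against control (adjusted p = 0.0072, limma), APOM, a carrier of sphingosine phosphate, at 0.19 and the uterine lipocalin PAEP at -0.45. In that comparison 15819 of the 41105 probes had an adjusted p of at most 0.01 (limma).

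Of the 9 tested intracellular calycins, FABP7, the brain fatty acid binding protein, was called lower in t(1;14) than in control (-2.44, adjusted p = 3.3e-04, limma) and none was called higher with its representative probe, where 4.41% of all probes were called lower. It was well above background on 1 of the 3 t(1;14) arrays, so its t(1;14) level of 3.26 lies near background and the size of the difference is uncertain. FABP7 thus entered the test through the control and oligospermic arrays alone. A lower signal in t(1;14) was built into the filter, and this p-value supports nothing. With the normexp background correction, whose offset compresses dim signals, FABP7 was at -0.69 and was not called. FABP1, the liver fatty acid binding protein, is named after its values were seen, because 2 of its 3 probes were called higher in t(1;14). All 3 probes were well above background on every t(1;14) array and on no control array. Against the approximate limit used for LCN1 they were 2.37-fold, 2.33-fold and 2.17-fold higher (adjusted p = 0.0022, 9.4e-04 and 9.8e-04, limma). FABP1 entered the test through the t(1;14) arrays alone, so this direction was built in. CRABP1, a retinoic acid binding protein, was at 0.06, and the fatty acid binding protein genes FABP3 and FABP5 were at 0.84 and 0.23. The list's median was 0.23, against 0.13 for all probes. The receptors and partners (4 tested) had no call, with the LCN2 receptor SLC22A17 at 1.12 (adjusted p = 0.039, limma), the RBP4 receptor STRA6 at -0.18, the membrane protein basigin (BSG) at 0.10 and the gelatinase MMP9 at -0.06. An adjusted p of at most 0.05 (limma) was reached by 22350 of the 41105 probes in t(1;14) against control.

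In the retinoid pathway, which supplies the ligands of RBP4 and LCN5, 2 of 13 tested genes were called higher in t(1;14) than in control and none lower, where 5.82% of all probes were called and 1.41% were called higher. Both encode retinol dehydrogenases: RDH11 rose from 12.17 to 14.37 (log2 difference 2.20, adjusted p = 6.8e-05, limma) and RDH12 from 11.12 to 13.87 (2.75, adjusted p = 8.8e-05, limma). Of the tested probes, 4 of 6 were called for RDH11 and 1 of 2 for RDH12. LRAT, which stores retinol as its ester, was at -1.53 against control and was called lower against oligospermic (-2.15, adjusted p = 1.7e-05, limma), though at -1.99 with the normexp correction it stayed under the threshold. RDH11 was called higher against oligospermic (2.06, adjusted p = 9.1e-05, limma), but not with 75 percentile scaling (1.85). RDH12 was at 1.99 against oligospermic and was not called, though it was with the normexp correction (2). The short-chain dehydrogenase DHRS4 was at 1.08, with 2 of its 3 probes called and the representative spot saturated on 3 of the 9 arrays, and the receptor RXRB at -0.06. The list's median was 0.04, close to that of all probes.

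In the prostaglandin pathway, which holds the substrate and product of PTGDS, 1 of 14 tested genes was called in t(1;14) against control, near the 5.82% of all probes. PLA2G4A, the phospholipase that releases arachidonic acid, rose from 7.23 to 9.26 (2.03, adjusted p = 8.3e-05, limma), a call that was lost without control replicate 2 (1.98) and with the normexp correction (1.69). The carbonyl reductase CBR1 was at 1.43 against control and was called against oligospermic (2.03, adjusted p = 1.1e-05, limma), but not with scaling by the 75 percentile (1.80) or the normexp correction (1.94). The prostaglandin E synthase PTGES3 was at 0.02, the thromboxane synthase TBXAS1 at 0.66, AKR1B1 at -0.38, and the list's median was 0.38.

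The genes of androstene and androgen synthesis, the source of the ligands of SAL1, had the most calls of the 6 pathway lists in t(1;14) against control. All 12 tested genes had a positive log2 difference between t(1;14) and control, from 0.54 to 2.88 with a median of 1.20, against 0.13 for all probes, and 4 were called higher and none lower, where 1.41% of all probes were called higher. These were CYP11A1, the side-chain cleavage enzyme (11.62 to 14.20, difference 2.57), CYP17A1 (12.27 to 14.57, difference 2.31), the aldo-keto reductase AKR1C4 (2.88) and the sulfotransferase SULT2A1 (2.46), with adjusted p in limma between 5.8e-06 and 8.7e-05. CYB5A, the cytochrome b5 that aids 16-androstene synthesis by CYP17A1, was at 1.33 (adjusted p = 5.1e-04, limma), the ferredoxin FDX1, which passes electrons to CYP11A1, at 1.06 and the steroid sulfatase STS at 0.76. The same 4 genes were called against the oligospermic boar. On the t(1;14) arrays, then, the lowest SAL1 group mean stood beside the highest group mean of each of these genes, while oligospermic against control gave 0 called genes in this list (median 0.05) and in every other list of the pathways. Not every gene stood apart. HSD3B1 differed by 0.05 between t(1;14) and oligospermic (adjusted p = 0.74, limma), and STS against control had an adjusted p of 0.10 (limma). CYP11A1, CYP17A1 and HSD3B1 are also in the Leydig marker list, whose summed level was higher in t(1;14) as given above. The part of Leydig cell content in these values was not tested.

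**Figure D5:**
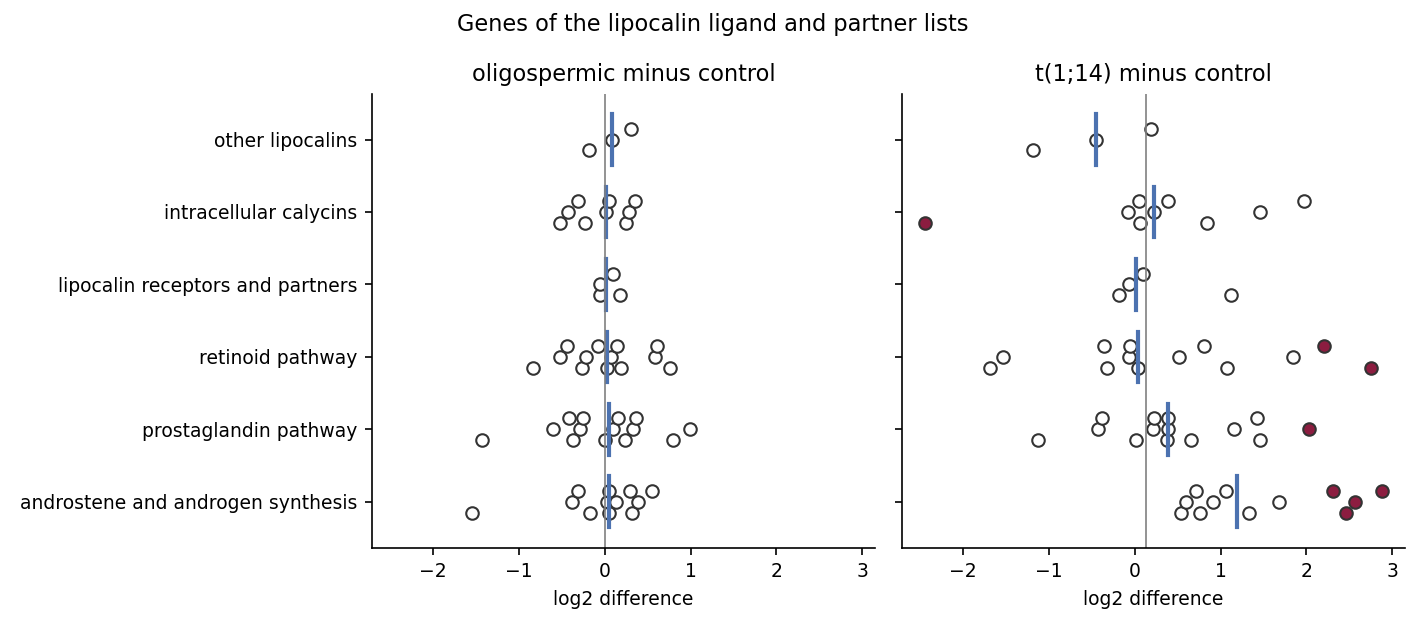
Log2 difference of each tested gene (representative probe) of 6 lists, in oligospermic and in t(1;14) against control, filled where called; blue ticks mark the median of each list and the grey line that of all probes (0 and 0.13). In t(1;14), the 12 genes of androstene and androgen synthesis all lie at 0.54 or above, and FABP7 is the called gene at -2.44.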

How the data were processed

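Testis RNA was measured on 9 single-colour (cyanine 3) arrays. The authors deposited spot intensity values after background subtraction and detrending by Agilent Feature Extraction, without normalization between arrays, and log2 values of 38759 probes that are quantile normalized over the 9 arrays and hold 8 of the 14 lipocalin probes. Here, quantile normalization of the log2 processed intensity of non-control probes was run on all 9 arrays together, and 1 linear model of 3 groups was fitted with limma 3.58.1 under R 4.3.3 (files were read with the package data.table, version 1.17.8), with Benjamini-Hochberg adjustment over 41105 probes. The filter was well above background, without outlier flag, on at least 2 of 3 arrays of 1 group. The p-values measure the spread between arrays, and the number of arrays limits precision (median SD 0.24, 0.18 and 0.13 in control, oligospermic and t(1;14)). The script was tested on simulated data. The members and the lists were chosen with earlier results of these data known. Probe names are those of the array design, and 14515 probes were named through a RefSeq table of Sscrofa11.1, used for names, chromosomes and gene order only. No list was tested as a set. Genes were named by rule: all lipocalin genes found, the called genes and up to 4 of highest signal per pathway list, and the 5 genes most like SAL1 (FABP1 was added after its values were seen), apart from 1 gene that is not reported here. Deviations of control and oligospermic arrays with the same replicate number, which lay on the same slide, correlated at 0.478, 0.136 and 0.101, while for t(1;14) and control they did so by slide (0.339, 0.109 and 0.119) and not by number (-0.285, -0.194 and 0.139). The alternatives were scaling by the 75 percentile, normexp with an offset of 50, the authors' log2 values, other filters, 6 arrays per comparison, slide or replicate number as a block, an intensity trend, other thresholds and leaving out each array.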

Additional observations from a re-analysis of the deposited data

How the results depend on the processing

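SAL1 kept its direction and size under every alternative run: -4.38 to -4.15 for t(1;14) against control, -4.18 to -3.95 against oligospermic and -0.32 to -0.1 for oligospermic against control. LCN5 was called in t(1;14) against oligospermic under all 18 (-4.46 to -2.39, adjusted p in limma 1.6e-05 to 0.0067). Called lipocalin probes in t(1;14) against control numbered 2 to 4 with each array left out in turn, the 4 (LCN5 and LCN1 beside SAL1) being those without control replicate 2. Differences near 0 changed sign as arrays were left out: PTGDS (-0.22 to 0.1) and LCN1 (-0.14 to 0.79) in t(1;14) against oligospermic, and TC568367 in oligospermic (-0.3 to 0.1) and t(1;14) (-0.04 to 0.35) against control. For oligospermic against control, all called probes numbered 15 with normexp, 27 with the filter in every group, 29 with 6 arrays, 30 with the replicate block, 41 with slide as a block and 33 to 126 with an array left out (96 and 126 without control replicates 1 and 2). The replicate block changed no call of a lipocalin probe. The cause was not tested. With normexp, whose offset compresses dim signals, 1007 and 1091 probes were called in t(1;14) against control and oligospermic. In the order oligospermic against control, t(1;14) against control and t(1;14) against oligospermic, the counts were 92, 15819 and 17553 at an adjusted p of 0.01 alone, 91, 8422 and 9621 with a log2 difference of at least 1, and 445, 22350 and 24179 at 0.05 alone. Alternatives chosen after seeing the data moved the lists. Of the intracellular calycins 2 were called in t(1;14) against control with 75 percentile scaling and 0 with normexp, and 0 against oligospermic with normexp. Prostaglandin genes called fell to 0 in t(1;14) against control with normexp or without control replicate 2. Against oligospermic they fell to 0 with normexp or 75 percentile scaling. Retinoid genes called in t(1;14) against oligospermic came to 1 with 75 percentile scaling, against 1 higher and 1 lower in the main run. Of the markers, SPO11 and AKAP4 lost their calls with normexp. LCN2, OBP and LCN1 in the oligospermic and t(1;14) boars are limited by signal over background.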

Other observations

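PTGDS was not alone in its low signal on control replicate 2. Among the 38 probes that lay at least 2 below every other array there, named after their values were seen, were 4 of 6 tested probes of POSTN, the matrix protein periostin (by 2.19 to 2.81), and 2 of 4 of MX1, an interferon-induced GTPase (by 3.77 and 4.01). The gap of PTGDS was 3.82.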
